A study of Mus musculus with 28 samples.

Results

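The genes described here are the core and linker histone genes, of which 62, read by 75 probes, were found among 37074 gene names on a mouse whole-genome expression array. Members were chosen by name alone: the RefSeq accession of each probe was matched to a current gene symbol, and every symbol with an old or new histone name was kept. No measured value entered that choice, although the histones were taken up with earlier results of these data known, so the counts below describe them. By name, 44 are replication-dependent genes (5 for H1, 13 for H2A, 10 for H2B, 7 for H3 and 9 for H4), 10 are replacement genes (2 for H1, 6 for H2A and 2 for H3), 7 are germ-line genes and 1, Macroh2a3, is a pseudogene.

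RNA came from archival liver of male B6C3F1 mice, an F1 hybrid strain, labelled as aged 42 days. Exposed mice (n = 3) drank water with 0.05% phenobarbital (PB) for about 4 weeks, and control mice (n = 3) drank water alone. PB is a barbiturate that activates the nuclear receptor CAR in liver and induces Cyp2b10, a drug-metabolising cytochrome P450. All livers had been fixed in formalin and embedded in paraffin (FFPE), and all blocks had been stored for 16 years. Complementary DNA of each mouse was hybridised at 1.5-fold (1.5X) and single (1X) input, on one-colour arrays (1 Cy3-labelled sample per array) and on two-colour arrays (a PB and a control sample per array, in Cy5 and Cy3). The 4 resulting sets hold the same 6 mice and are not independent experiments.

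Each set lay on 1 slide, so input, slide and scan session cannot be told apart. On one-colour arrays, the scanner software counted 33.4% ± 3.74 of probes as well above background with 1.5X input and 48.3% ± 2.99 with 1X input (SD, n = 6 arrays each), whereas in the Cy5 channel of the two-colour 1.5X set the share was only 4.64%. No histone probe was saturated on any one-colour array. Cyp2b10 followed the exposure labels, with 0.44, -0.06 and -0.32 in PB livers, against -6.14, -6.44 and -5.98 in control livers. These, like all one-colour levels below, are log2 signals relative to the 75th percentile of the array's measured probes, averaged over both inputs of a mouse. In the two-colour 1.5X set the Cyp2b10 ranges of the groups overlapped. The tissue carried liver transcripts, since 6 of 6 hepatocyte markers were well above background in every mouse, and also pancreas transcripts, with summed levels of 84.2 to 482 times that percentile in PB livers and 129 to 486 times in control livers. These ranges overlap, but all 8 pancreas markers were lower on average in PB livers (median log2 difference -0.97). All 7 tested in each two-colour set were lower too, and none passed the test described below in any of these sets. On the two-colour 1X slide, 2 of 8 arrays carry labels that give opposite exposures for each dye and are not used in any comparison, and on 4 arrays 2 label fields give different mouse numbers.

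Histones package DNA: H2A, H2B, H3 and H4 molecules together form the nucleosome core, and H1 binds the linker DNA between cores. Replication-dependent histone genes lie in clusters, lack introns and are transcribed mainly in S phase, when new DNA must be packaged. Their mRNA normally ends in a stem-loop bound by Slbp rather than in a poly(A) tail, and it is degraded when replication stops. Replacement histones are made throughout the cell cycle from ordinary polyadenylated mRNA and are put into chromatin without replication. In adult liver few hepatocytes divide, and PB is a known liver mitogen in rodents. Of the replication-dependent genes, 33 lie on chromosome 13, 8 on chromosome 3, 2 on chromosome 11 and 1 on chromosome 6.

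Promoters of 6 replication-dependent genes are shown as examples of different readings on the arrays: H2bc18, H3c3 and H2bc3 are the members with the highest fold changes that passed the test, H1f2 stayed near 0, and H2ac19 and H2ac18 are neighbouring H2A copies whose values had opposite signs. Each line gives the 250 bases before the annotated start of the gene, 5′ to 3′ on the gene's strand, from RefSeq on GRCm38.p6, with the CCAAT box (CCAAT), TATA box (TATAAA), octamer (ATTTGCAT) and H1 box (AAACACA) in capitals where a search of both strands found them.
H3c3 (chr13:23745522-23745771, minus strand): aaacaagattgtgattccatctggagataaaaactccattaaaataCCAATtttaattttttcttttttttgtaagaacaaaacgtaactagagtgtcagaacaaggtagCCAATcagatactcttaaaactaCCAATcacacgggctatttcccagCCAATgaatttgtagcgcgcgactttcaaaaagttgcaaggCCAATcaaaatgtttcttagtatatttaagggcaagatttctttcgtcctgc
H2bc3 (chr13:23746484-23746733, plus strand): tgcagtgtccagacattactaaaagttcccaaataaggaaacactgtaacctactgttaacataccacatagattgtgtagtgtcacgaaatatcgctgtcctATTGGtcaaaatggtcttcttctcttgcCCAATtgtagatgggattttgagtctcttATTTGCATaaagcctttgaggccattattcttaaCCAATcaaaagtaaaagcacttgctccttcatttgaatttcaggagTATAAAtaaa
H2bc18 (chr3:96269450-96269699, plus strand): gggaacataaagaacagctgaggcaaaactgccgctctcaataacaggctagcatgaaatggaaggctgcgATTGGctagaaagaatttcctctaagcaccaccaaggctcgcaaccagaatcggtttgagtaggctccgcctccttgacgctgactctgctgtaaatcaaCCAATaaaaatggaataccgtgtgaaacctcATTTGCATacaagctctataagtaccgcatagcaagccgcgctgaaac
H1f2 (chr13:23738557-23738806, plus strand): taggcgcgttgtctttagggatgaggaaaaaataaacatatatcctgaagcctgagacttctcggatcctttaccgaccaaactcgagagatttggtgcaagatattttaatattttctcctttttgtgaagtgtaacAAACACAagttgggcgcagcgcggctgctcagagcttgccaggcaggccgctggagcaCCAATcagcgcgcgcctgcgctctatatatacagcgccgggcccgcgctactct
H2ac19 (chr3:96240375-96240624, minus strand): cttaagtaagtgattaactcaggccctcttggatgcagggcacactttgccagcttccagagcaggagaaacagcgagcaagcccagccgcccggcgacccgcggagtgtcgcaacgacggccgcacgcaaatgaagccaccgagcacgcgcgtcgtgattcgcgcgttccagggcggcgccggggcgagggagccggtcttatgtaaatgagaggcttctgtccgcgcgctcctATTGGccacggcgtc
H2ac18 (chr3:96245247-96245496, plus strand): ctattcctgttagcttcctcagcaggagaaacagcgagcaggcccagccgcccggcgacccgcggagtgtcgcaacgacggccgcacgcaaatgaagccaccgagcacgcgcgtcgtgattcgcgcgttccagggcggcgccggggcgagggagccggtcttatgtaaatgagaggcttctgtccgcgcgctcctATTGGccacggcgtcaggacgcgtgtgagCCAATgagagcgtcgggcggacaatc
In H2bc18 the octamer, a motif known for H2B promoters, ends 40 bases before the start, with a CCAAT box ending 74 bases before it. H3c3 holds 5 CCAAT boxes in its window. H2ac18 and H2ac19 share an identical run of 169 bases of the 250.

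RefSeq promoters were matched for 55 of the 62 genes, 39 of them replication-dependent. A CCAAT box was found in 33 of these 39 (84.6%), against 33.9% of 32841 promoters of the same length. A TATA box was found in 20 (51.3%), against 12.4% of all promoters, and the octamer in 10 (25.6%), against 1.6%. The octamer matches lay in 6 of 13 H2A and 4 of 8 H2B promoters and in no H1, H3 or H4 promoter. The H1 box was found in 4 of 5 H1 promoters, against 6.25% of all promoters. CCAAT boxes lay in all 5 H1, 13 H2A, 8 H2B and 5 H3 promoters, but in only 2 of 8 H4 promoters. The next counts take genes tested in the mean of both one-colour inputs or in the two-colour 1X set. CCAAT boxes were found in 15 of the 17 replication-dependent promoters of genes that passed there, and in 9 of the 13 of genes that did not. The promoters without one were all of H4 genes, so these counts also reflect how many H4 genes fell in each group. H3c8 and H3c11, tested only on one-colour 1X arrays without passing, are not in these counts and also hold CCAAT boxes. Of the replacement promoters, 5 of 9 held a CCAAT box and 1 of 9 the octamer. A match describes these letters in this window and does not show a bound site, and the windows of divergent neighbours such as H2ac22 and H2bc22 share bases.

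In the mean of both one-colour inputs, 7 of 34 replication-dependent histone genes tested rose in PB livers, none fell, and 30 of 34 had fold changes above 0. Their median log2 fold change, PB over control, was 0.85, against -0.02 for all 12792 genes tested. A gene was tested if every array of 1 or both exposure groups read its probe well above background, and it passed with a Benjamini-Hochberg adjusted p under 0.05 over all genes tested by limma. Of all genes tested, 0.672% passed and were higher. The 3 PB values were all above the 3 control values for 26 of the 34, against 9.03% of all genes tested, and all below them for 1, H2ac18, against 9.87%. The 7 calls rest on all 6 mice: leaving out PB mouse 1 left 3 histone genes past the threshold, and leaving out any other mouse left none. The count also moved with the processing, to 17 histone genes after normexp and quantile normalization, 1 without the filter on dim probes, and 0 without scaling between arrays or with the replicate number as a block. In a whole-liver sample, more cells of a kind and more RNA per cell cannot be told apart.

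**Figure D1:**
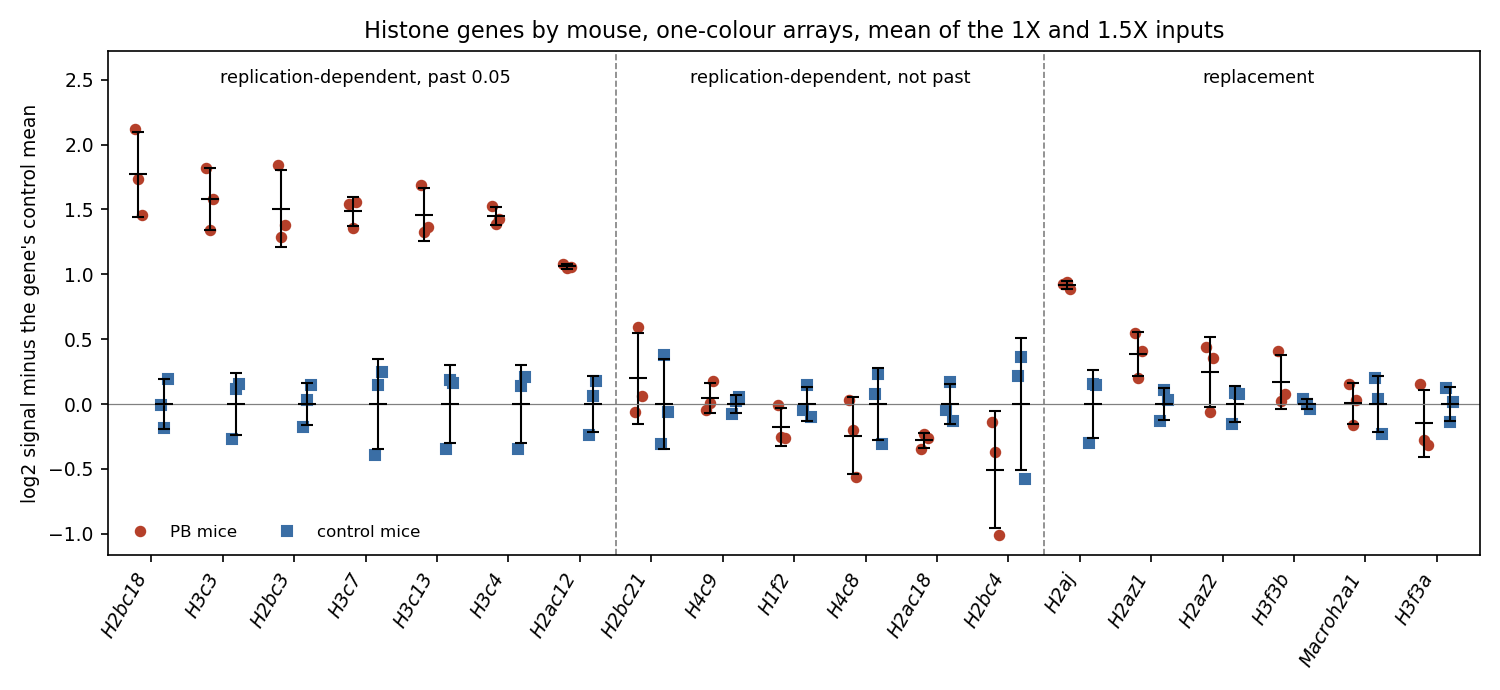
Log2 signal of histone genes by mouse in the one-colour mean of both inputs, minus the gene's control mean, with PB mice left of control mice; points are mice and bars are the mean ± SD (n = 3 each). In each of the 7 replication-dependent genes past the threshold (left) every PB mouse lies above every control mouse. The replication-dependent genes in the middle were chosen from those that did not pass, as examples with values near or below 0. They and 5 of the 6 replacement genes (right) lie within 0.51 of 0 on average. Other genes that did not pass are not shown and had higher values, such as H2ac21 (1.93) and H1f1 (1.47).

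All 4 testable H3 genes passed, with log2 fold changes between 1.45 and 1.58. H3c3, which encodes canonical H3 and whose promoter is shown above, had 1.18, 0.71 and 0.95 in PB livers, against -0.90, -0.51 and -0.47 in control livers. The lowest PB mouse was above the highest control mouse by more than either group's range, and the log2 fold change was 1.58 (SE 0.19, adjusted p = 0.0196).
H3c4 had 3.18, 3.05 and 3.08 in PB livers, against 1.31, 1.80 and 1.87 in control livers. PB mice lay close together and control mouse 1 was the lowest, a place it also held for H3c7, H3c13 and H3c3. The log2 fold change of H3c4 was 1.45 (SE 0.18, adjusted p = 0.022).
H3c7 had 0.10, -0.08 and 0.13 in PB livers, against -1.83, -1.29 and -1.18 in control livers, a log2 fold change of 1.48 (adjusted p = 0.0265). H3c13, from the chromosome 3 cluster, had 2.14, 1.77 and 1.81 in PB livers, against 0.10, 0.64 and 0.61 in control livers, a log2 fold change of 1.46 (adjusted p = 0.0284). The fold changes of the 4 genes, which lie on chromosomes 13 and 3, differed by less than the SE of H3c3. The 3 remaining H3 genes, H3c1, H3c8 and H3c11, were measured well enough only at 1X, where their log2 fold changes were 1.47, 0.39 and 1.45 and none passed (adjusted p = 0.191, 0.644 and 0.344). For H3c1 only 1 of 3 control arrays at 1X was well above background, so the size of its fold change depends on dim control spots.

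H2B divided into 2 genes that passed and 5 that did not. H2bc18 had the largest fold change among the genes that passed, with -1.50, -1.88 and -2.15 in PB livers, against -3.62, -3.80 and -3.42 in control livers. The groups were separated by more than 1 log2 unit, and the log2 fold change was 1.77 (SE 0.20, adjusted p = 0.0171). H2bc3, which lies close to H3c3 on chromosome 13, had 1.13, 0.58 and 0.67 in PB livers, against -0.89, -0.68 and -0.57 in control livers. Its log2 fold change was 1.50 (SE 0.19, adjusted p = 0.022). Of the others, H2bc14 had a log2 fold change of 0.95 (adjusted p = 0.141) with no overlap between groups. H2bc6, H2bc21, H2bc8 and H2bc4 had 0.24, 0.20, 0.01 and -0.51, and in all 4 the PB and control mice overlapped. H2bc4 had -2.61, -2.85 and -3.49 in PB livers, against -2.27, -2.11 and -3.06 in control livers. The family's median was therefore low, at 0.24 over 7 genes tested.

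H2A genes had a median log2 fold change of 1.15 over 10 tested, but 1 passed. H2ac12 had 4.10, 4.06 and 4.07 in PB livers, against 2.78, 3.08 and 3.20 in control livers. PB mice were almost level while the control mice spread, and the log2 fold change was 1.06 (SE 0.16, adjusted p = 0.0359). Of the 9 others, 8 had non-overlapping groups with PB higher and log2 fold changes between 0.88 and 1.93. H2ac15 had 3.74, 3.53 and 3.62 in PB livers, against 2.05, 2.61 and 2.67 in control livers (log2 fold change 1.19, adjusted p = 0.0508). H2ac10 missed the threshold by as little, at 1.09 (adjusted p = 0.0508).
H2ac21 had the highest value of any histone gene, 1.93 (adjusted p = 0.0689), but at each input only 1 of 3 control arrays was well above background, so its size depends on dim control spots. H2ac4, H2ac11 and H2ac22 had log2 fold changes of 1.34, 1.31 and 1.31, with adjusted p-values of 0.0563, 0.0647 and 0.0611.

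The neighbouring copies H2ac19 and H2ac18 on chromosome 3, whose promoters share the run given above, read differently. H2ac19 had 3.49, 3.37 and 3.29 in PB livers, against 2.20, 2.68 and 2.62 in control livers, a log2 fold change of 0.88 (adjusted p = 0.0776). H2ac18 had 0.51, 0.62 and 0.58 in PB livers, against 0.81, 1.02 and 0.72 in control livers, a log2 fold change of -0.28 (adjusted p = 0.463). Neither passed, the groups did not overlap in either gene, and they lay in opposite order. Histone coding sequences are very similar between copies, and which transcripts each probe reads was not tested.

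No H4 gene passed in the one-colour mean, and the median log2 fold change of the 9 tested was 0.52. H4f16 had 0.45, 0.23 and 0.32 in PB livers, against -0.55, -0.41 and -0.44 in control livers, a log2 fold change of 0.80 (adjusted p = 0.0563). H4c11, H4c17, H4c4, H4c3, H4c14 and H4c12 had 0.82, 0.81, 0.61, 0.52, 0.47 and 0.37, and in each of them the groups did not overlap. H4c9 and H4c8 were apart from these. H4c9 had 5.15, 5.20 and 5.37 in PB livers, against 5.12, 5.21 and 5.24 in control livers, a log2 fold change of 0.05. H4c8 had -0.92, -1.16 and -1.52 in PB livers, against -0.88, -0.72 and -1.27 in control livers, a log2 fold change of -0.24. In both the groups overlapped.

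Linker histones also differed among themselves. H1f1 had -0.87, -1.51 and -1.19 in PB livers, against -3.17, -2.19 and -2.63 in control livers. Its groups were separate but its control mice spread widely, and the log2 fold change of 1.47 missed the threshold (SE 0.28, adjusted p = 0.0713). H1f5 and H1f4 had 0.80 and 0.63, also without overlap and without passing. H1f2 had 0.33, 0.08 and 0.07 in PB livers, against 0.29, 0.49 and 0.23 in control livers, and these ranges overlapped. Its log2 fold change was -0.18 (SE 0.15, adjusted p = 0.667).

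Among the 34 replication-dependent genes tested, 7 had log2 fold changes within 0.3 of 0, namely H2bc6, H2bc21, H4c9, H2bc8, H1f2, H4c8 and H2ac18. Across the 6 mice, the per-mouse median over all 34 genes, relative to the control mean, was 1.04, 0.81 and 0.81 in PB mice and -0.19, 0.13 and 0.14 in control mice. The PB values are all far above the control values, and control mouse 1 is the lowest of the 6. The level pattern of each gene over the mice correlated with the mean of the others at 0.99 for H3c4, at -0.55 for H2bc4 and at -0.83 for H2ac18, as a description of 6 points that share the exposure groups.

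Of the replacement histone genes, 6 were tested and none passed. Their median log2 fold change was 0.21, which became -0.01 when arrays were not scaled to each other (0.63 for the replication-dependent genes under that setting). It was 0.10 without PB mouse 1 and 0.32 without PB mouse 2. H2aj, an H2A variant whose protein closely resembles canonical H2A, was the exception in size, with 3.69, 3.70 and 3.64 in PB livers, against 2.45, 2.91 and 2.91 in control livers. The groups did not overlap, and the log2 fold change was 0.92 (SE 0.17, adjusted p = 0.0683). H2aj lies close to H4f16 on chromosome 6, away from the main clusters.
H2az1, which encodes H2A.Z, a variant found at gene starts, had 3.32, 2.98 and 3.18 in PB livers, against 2.64, 2.88 and 2.80 in control livers, a log2 fold change of 0.39 (adjusted p = 0.348). H3f3b had 0.86, 0.48 and 0.53 in PB livers, against 0.49, 0.45 and 0.42 in control livers, a log2 fold change of 0.17 (adjusted p = 0.687). H3f3a, which encodes the same H3.3 protein as H3f3b, had -2.14, -2.58 and -2.61 in PB livers, against -2.17, -2.43 and -2.28 in control livers, a log2 fold change of -0.15 (adjusted p = 0.761). For H3f3a and H3f3b the groups overlapped, and for H2az1 they did not. H2az2, another H2A.Z gene, and Macroh2a1, which encodes a large H2A variant of silent chromatin, had 0.25 and 0.01, with overlap in both.

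Several replacement genes that are often looked for could not be read. H2ax, the variant phosphorylated at DNA breaks, H1f0, the linker histone of non-dividing cells, and H1f10 were not well above background in enough arrays to be tested in any set. Macroh2a2 was tested at 1X only, where all 3 PB arrays and no control array were well above background. Its log2 fold change of 1.15 did not pass (adjusted p = 0.209), and its size depends on dim control spots. At 1.5X no array of either group read it well above background. Of the 44 replication-dependent genes, 7 were tested in no set.
Of the germ-line genes, H2bc1, a testis H2B, had 0.67, 0.15 and 0.17 in PB livers, against -0.64, -0.62 and -0.28 in control livers, a log2 fold change of 0.84 (adjusted p = 0.127). H1f8, the oocyte linker histone, had a log2 fold change of 0.06. Of the 7 germ-line genes, 4 were tested in no set, and whether the H2bc1 probe also reads other H2B copies was not tested.

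**Figure D2:**
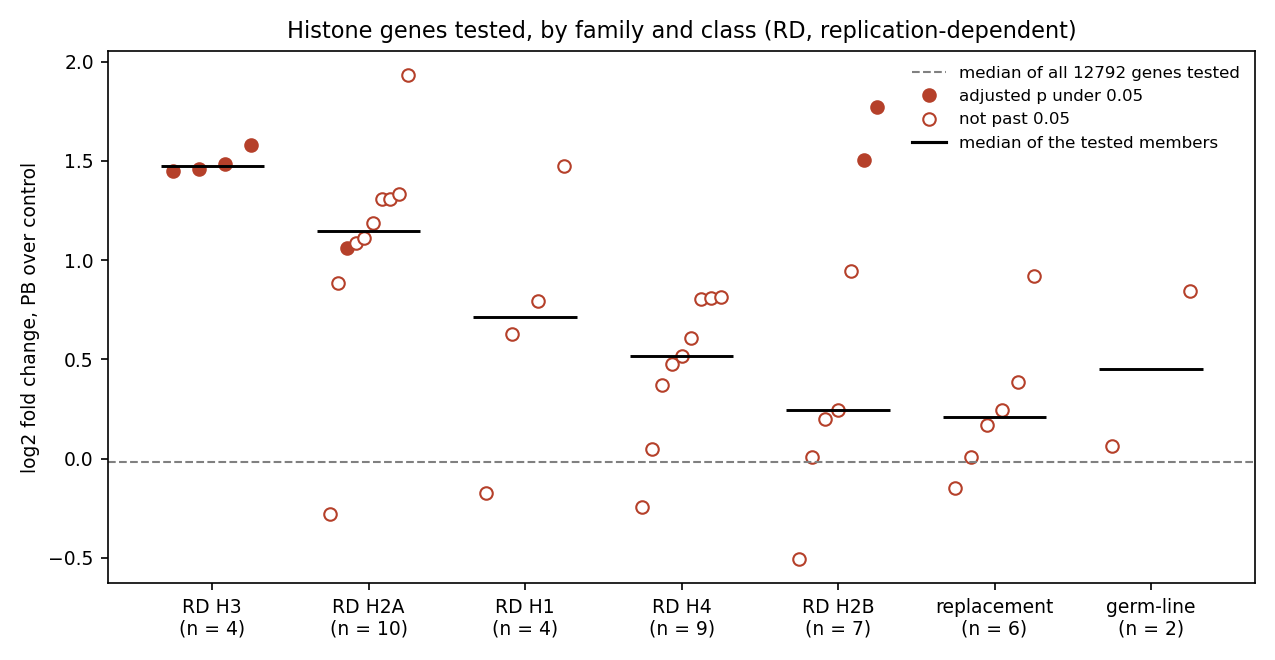
Log2 fold change, PB over control, of each tested histone gene in the one-colour mean of both inputs, by family and class (replication-dependent families, replacement, germ-line); filled points passed the test, bars are medians of the tested members and the dashed line is the median of all genes tested. The 4 H3 genes lie together between 1.45 and 1.58, H2A genes lie between 0.88 and 1.93 except H2ac18, H2B genes spread from -0.51 to 1.77, and no H4 gene exceeds 0.82.

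Where a second probe of a gene was bright enough, it mostly gave the same direction. For H2ac15 the probe used gave a log2 difference of 1.19 and the second 1.24, and for H2az1 they gave 0.39 and 0.37. The H4 genes were less uniform: H4c14 had 0.47 and 1.03, H4c12 had 0.37 and 0.69, and H4c9, near 0 by its first probe at 0.05, had 0.46 by its second. All of these probes were well above background at both inputs in all 6 mice. Macroh2a1 had 0.01, -0.89 and 0.29 by 3 probes of different transcripts, of which the last 2 were above background in 5 of 6 mice.

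The same mice were read again on two-colour arrays, which are the set with the most calls. At 1X, 18 of 24 replication-dependent genes tested passed and were higher in PB livers and none was lower, where 3.35% of all 8248 genes tested passed and were higher. Their median log2 fold change was 0.76, against -0.01 for all genes tested, and 20 had non-overlapping groups with PB higher, against 16.3% of all genes. With PB lower, 1 of the 24 had non-overlapping groups, and the share of all genes in that direction is not given here. H3c4 led, with 10.78, 10.82 and 10.93 in PB livers, against 9.13, 9.64 and 9.61 in control livers, as log2 signal averaged over both dyes. Its log2 fold change was 1.38 (SE 0.14, adjusted p = 0.0014). H2ac11 had 10.78, 10.73 and 10.83 in PB livers, against 9.01, 9.64 and 9.64 in control livers, a log2 fold change of 1.35 (adjusted p = 0.00324). In both genes the PB mice lay closer together than the control mice, and control mouse 1 was lowest.

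Also past the threshold in that set were the H2A genes H2ac22 (1.34), H2ac15 (1.27), H2ac12 (1.17), H2ac20 (1.15), H2ac10 (1.14), H2ac19 (0.87) and H2ac4 (0.69), with log2 fold changes in brackets. For H2ac4 only 1 of 3 control mice was well above background. The H3 genes H3c13, H3c3 and H3c7 had 1.16, 1.08 and 0.83, and H2bc3 had 1.02. There were 4 H4 genes past the threshold that had not passed in the one-colour mean: H4f16 (0.63), H4c4 (0.52), H4c12 (0.49) and H4c14 (0.41). H1f4 passed at 0.47 (adjusted p = 0.0453). Of the 7 genes within 0.3 of 0 in the one-colour mean, 4 were tested here, and H4c9, H2ac18, H1f2 and H4c8 had 0.07, -0.05, -0.12 and -0.19, none of which passed. H2bc14, at 0.95 in the one-colour mean, had 0.25 here (adjusted p = 0.115), and H2bc6, H2bc21 and H2bc8 were not tested. H2bc18, with the largest fold change among the genes that passed in the one-colour mean, was not tested in either two-colour set. H2ac18 had 8.93, 9.002 and 8.93 in PB livers, against 8.93, 9.01 and 9.08 in control livers, so that its groups overlapped here.
Of the 5 replacement genes tested, 2 passed as well. H2aj had 11.30, 11.52 and 11.58 in PB livers, against 10.19, 10.64 and 10.51 in control livers, a log2 fold change of 1.02 (adjusted p = 0.00403). H2az1 had 11.19, 11.23 and 11.29 in PB livers, against 10.66, 10.89 and 10.86 in control livers, a log2 fold change of 0.43 (adjusted p = 0.0245). H3f3b had -0.15, with the PB mice below the control mice (adjusted p = 0.235). H2bc1 passed at 0.57 (adjusted p = 0.00388). H2az1 passed in 2 of the 6 fits that left out 1 mouse, and H1f4, H4c12 and H4c14 in 1 each. With the mouse numbers of the other label field, 12 histone genes of all classes passed in place of 21.

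**Figure D3:**
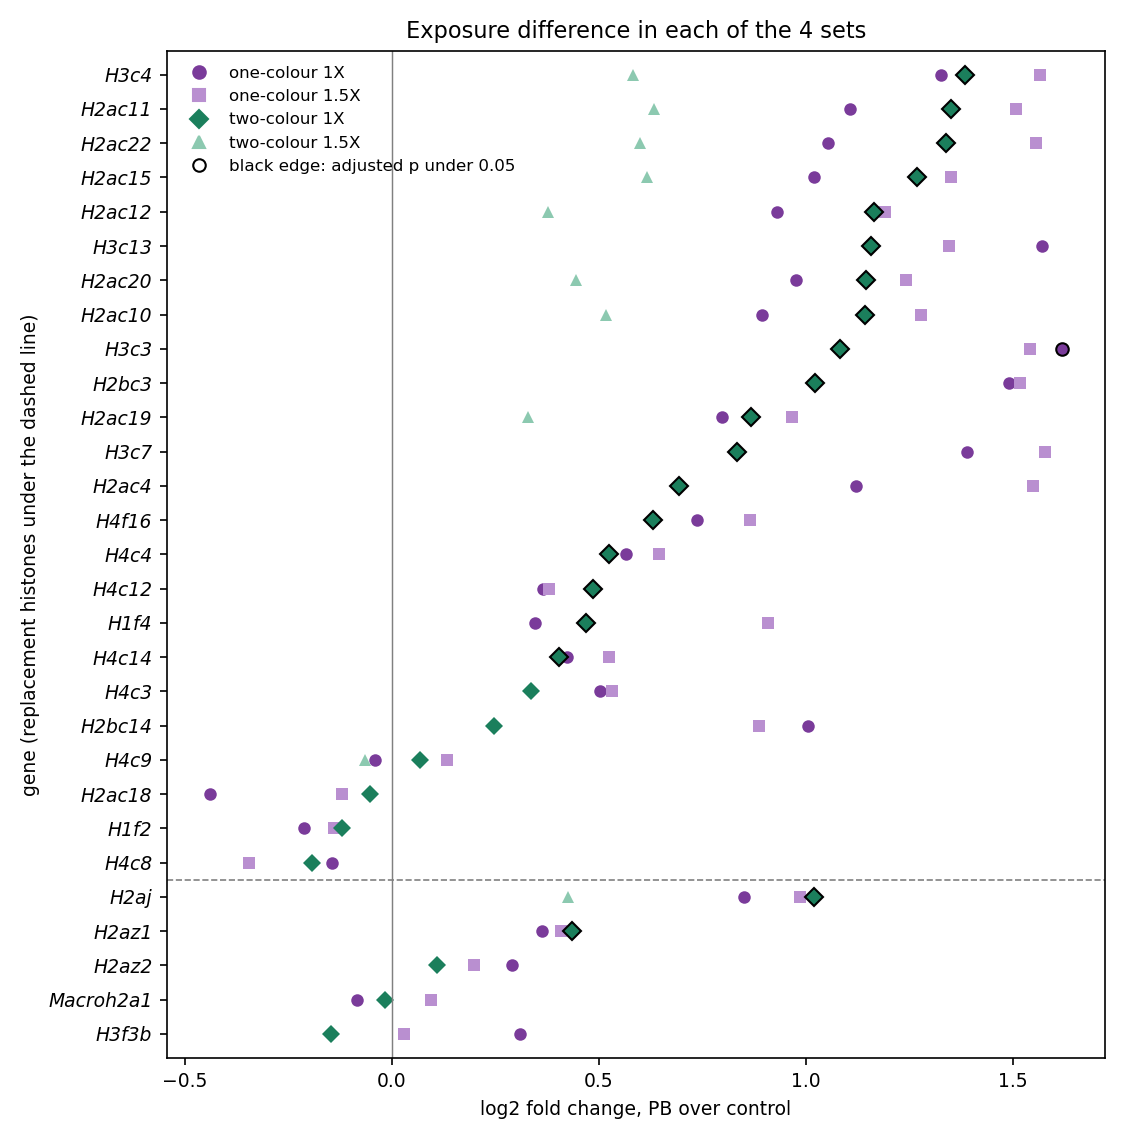
Log2 fold change, PB over control, of the replication-dependent and replacement histone genes tested in both one-colour sets and in the two-colour 1X set, with the two-colour 1.5X value where there is one; black edges mark adjusted p under 0.05. The germ-line gene H2bc1, also tested in these sets, is not shown. For most replication-dependent genes all markers lie right of 0, and the two-colour 1.5X markers, where present, lie left of the other 3.

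Taken one set at a time, the one-colour arrays gave few calls. At 1X, 1 of 37 replication-dependent genes tested passed and was higher, H3c3 (1.62, adjusted p = 0.0484; it passed in none of the 6 fits that left out 1 mouse), where 0.156% of all genes passed and were higher. At 1.5X none of 34 passed by limma, where 0.23% of all genes passed and were higher. An unadjusted p under 0.05 was found for 25 of these 34 and for 1959 of all 13067 genes tested. The medians were 0.96 at 1.5X and 0.83 at 1X. Groups did not overlap, with PB higher, for 26 of 34 genes at 1.5X, against 9.31% of all genes tested, and for 27 of 37 at 1X, against 7.42%. With PB lower, they did not overlap for 0 of 34 at 1.5X and 1 of 37 at 1X, where the share of all genes is not given here. In the two-colour 1.5X set none of 9 passed, where 0% of 1659 genes tested passed by limma. An unadjusted p under 0.05 was found for 4 of the 9 and for 28 of the 1659. The median of these 9 was 0.52, and 6 had non-overlapping groups with PB higher, against 2.05% of all genes tested.
Of the 24 replication-dependent genes tested in both one-colour sets and in the two-colour 1X set, 20 were above 0 in all 3, and of the 9 tested in all 4 sets, 8 were above 0 in all 4. The exception among the 9 was H4c9. Because the sets share their mice, this counts repeated readings of the same livers.

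Between inputs, 38 of 44 histone genes tested were lower and 2 higher at 1.5X than at 1X within the same 6 mice, where 82.8% of 16687 genes tested were lower and 3.32% higher. Replication-dependent genes had a median log2 difference, 1.5X minus 1X, of -1.19, replacement genes -0.54 and all genes -1.002. H1f2 and H2bc4, at 0.65 and 0.50, were the 2 higher ones. The direction depends on the scaling: after normexp and quantile normalization 24 histone genes were higher and 5 lower. The exposure effect itself did not pass a test of difference between inputs for any of 42 histone genes (limma, 0% of 12792 genes tested passed, and no histone gene had an unadjusted p under 0.05). The difference in log2 fold change, 1.5X minus 1X, ran between -1.32 and 0.60 over these genes.

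Genes that act with histones in S phase were read from a list. Of 29 listed DNA replication genes, 11 were tested in the one-colour mean, all 11 had fold changes above 0, and 1 passed, Mcm6, a subunit of the replicative helicase, at 1.33 (adjusted p = 0.044). The median of the list was 0.73. Of 8 proliferation markers, 4 were tested and 2 passed. Only 2 of the 8 were well above background at both inputs in every mouse, and 3 were so in none. The sizes of the list's fold changes and per-mouse medians therefore depend in part on dim spots. Cdc20, an activator of the anaphase-promoting complex, had a log2 fold change of 2.76 (adjusted p = 0.02), and Birc5, which encodes survivin, had 1.82 (adjusted p = 0.036). In the two-colour 1X set 4 of 4 proliferation markers and 2 of 3 replication genes, Mcm6 (1.06) and Mcm7 (0.55), passed and were higher.
The per-mouse median of the replication genes, relative to the control mean, was 1.13, 0.51 and 0.62 in PB mice and -0.23, 0.07 and 0.17 in control mice. For the proliferation markers it was 2.71, 1.72 and 2.38 in PB mice and -0.47, 0.34 and 0.10 in control mice. In this one-colour mean PB mouse 1 was highest and control mouse 1 lowest in both lists, as in the replication-dependent histones. The place of PB mouse 1 changed in the two-colour 1X set. There it was the lowest PB mouse for these histones (0.68, 0.71 and 0.88) and the proliferation markers (0.84, 0.90 and 0.89). For the replication genes it remained highest (0.57, 0.51 and 0.56).

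Genes for making histone mRNA and for carrying histone proteins were read likewise. Of 14 listed genes of histone mRNA synthesis and processing, 7 were tested, none passed, and the median log2 fold change was 0.00. Slbp, the stem-loop binding protein, had 0.58 (adjusted p = 0.242), and Hinfp, an H4 promoter factor, had -0.51 (adjusted p = 0.58). Npat, the coactivator of histone genes, was not well above background in any mouse. Of 20 histone chaperone genes, 12 were tested, none passed, and the median was 0.03. Hjurp, the chaperone of the centromeric H3 variant, had 0.85 (adjusted p = 0.051), and Rbbp4, a subunit of the CAF-1 chaperone, had -0.50 (adjusted p = 0.335). In the two-colour 1X set Hjurp passed at 0.47 (adjusted p = 0.0111), the only 1 of 9 chaperones tested to do so.

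**Figure D4:**
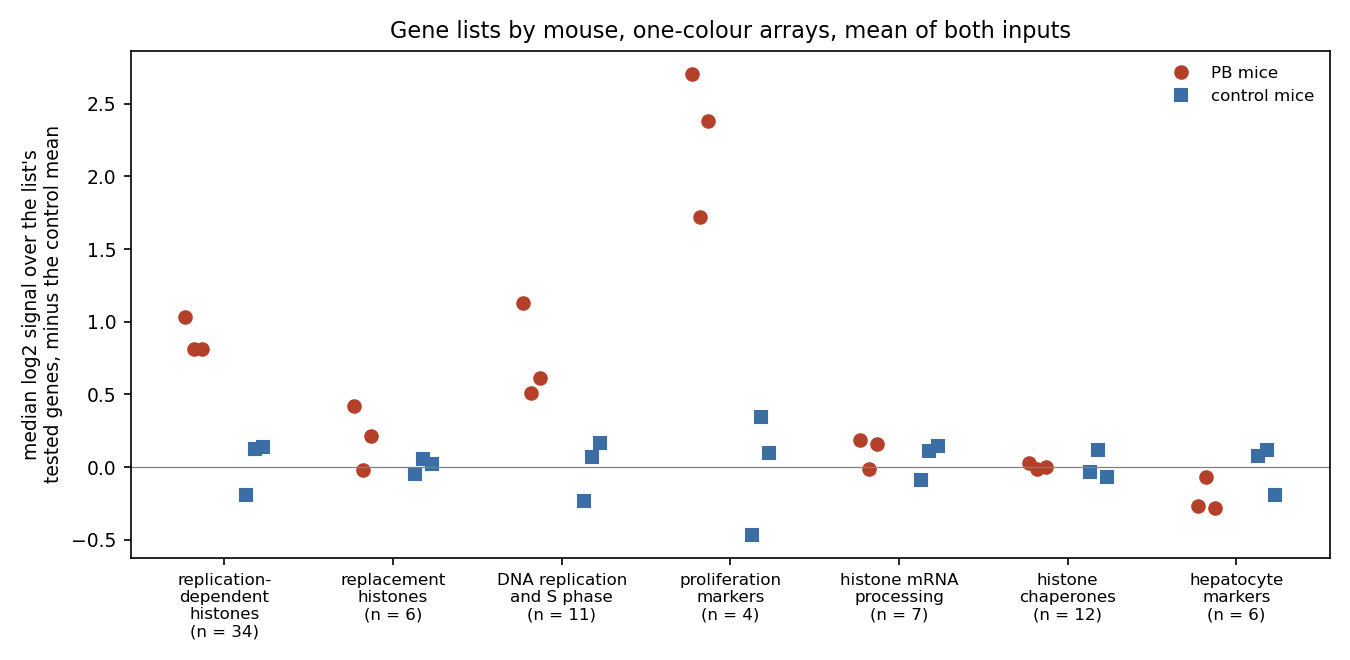
Median log2 signal per mouse over the tested genes of each list, minus the control mean, in the one-colour mean of both inputs, with PB mice left of control mice; points are mice. Replication-dependent histones, replication genes and proliferation markers are higher in all 3 PB mice, while the replacement, mRNA processing, chaperone and hepatocyte marker lists overlap between groups.

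Markers of other cell types were read beside these. The summed level, in units of the array's 75th percentile, of 7 Kupffer cell and macrophage markers on the array was 4.52 to 5.67 in PB livers and 3.72 to 4.28 in control livers, which do not overlap, and Mpeg1, a macrophage perforin, passed at 0.95 (adjusted p = 0.045). The 6 neutrophil markers summed to 0.183 to 0.679 in PB livers and 0.098 to 0.145 in control livers, which do not overlap, with S100a8, Mpo and Elane well above background in no mouse. None of the 6 was well above background at both inputs in every mouse, so these sums depend on dim spots. The 1 neutrophil marker tested had a log2 fold change of 2.08 and did not pass. On the one-colour arrays the groups overlapped for 4 erythroid markers (4.33 to 6.30 in PB livers, 4.01 to 8.97 in control livers) and 5 cholangiocyte markers (1.47 to 2.18 in PB livers, 0.972 to 1.93 in control livers). They also overlapped for 5 markers of stellate cells and fibroblasts (3.11 to 3.69 in PB livers, 2.24 to 3.25 in control livers) and 5 of endothelium (2.34 to 2.89 in PB livers, 2.71 to 3.15 in control livers). Hepatocyte markers had a median log2 fold change of -0.18, and in the two-colour 1X set Alb (-0.39) and Ttr (-0.62) fell. In that set, the per-mouse medians of several lists, relative to the control mean, did not overlap between groups. They were 0.22, 0.23 and 0.19 in PB mice and -0.22, 0.13 and 0.09 in control mice for 2 stellate cell and fibroblast markers tested. For 5 Kupffer cell and macrophage markers they were 0.060, 0.097 and 0.067 in PB mice and 0.018, -0.053 and -0.016 in control mice. PB mice were lower for 2 endothelium markers, at -0.22, -0.10 and -0.24 in PB mice and 0.006, -0.011 and 0.005 in control mice. They were also lower for 6 hepatocyte markers, at -0.26, -0.22 and -0.30 in PB mice and 0.04, -0.05 and -0.04 in control mice. The part of any of these cells in the histone values was not tested.

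Over the 12 one-colour arrays, centred within each set, the genes whose levels most resembled the mean of the replication-dependent members were Ube2c (r = 0.963), Nr1d2 (0.960), Lratd1 (0.959), Cobl (0.956) and Stmn1 (0.955). These points share mice and exposure groups, so the values are descriptions. Ube2c, a ubiquitin-conjugating enzyme of mitosis, had a log2 fold change of 2.41 (adjusted p = 0.0171), and Stmn1, a regulator of microtubules, had 1.67 (adjusted p = 0.0196). Nr1d2, a nuclear receptor of the circadian clock, had 1.21 (adjusted p = 0.0279).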

How the data were processed

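The deposited files are scanner outputs, made by the authors with the Agilent Feature Extraction software (version 11.0.1.1, per the file headers). It gives the intensity of each spot, background and outlier flags and, for two-colour arrays, a log10 ratio. That ratio was used, converted to log2, only for the 2 arrays whose labels give opposite exposures for each dye. The authors' deposited value table holds the same processed intensity for one-colour arrays, used as an alternative, and for two-colour arrays a log10 ratio of unstated direction. Aligners and genome builds play no part in these values. RNA was extracted with the Qiagen FFPE RNeasy kit and amplified with the WTA2 kit, per the labels' protocols.

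The array design has 62976 spots, 3671 of them controls. Control and outlier-flagged spots were left out, spots of a probe were averaged, and the probe with the highest mean one-colour signal stood for its gene. Of 55681 probes, 27235 had a RefSeq name here (20660 symbols). One-colour values were log2 processed intensity minus the array's 75th percentile over the probes that all 6 arrays of that set read well above background. Two-colour values came from median intensity after normexp (offset 50), loess (span 0.3) and Aquantile, averaged per mouse over both dyes. Comparisons used 6 (1X) and 8 (1.5X) of the 16 two-colour arrays, and the 1.5X arrays included repeats of the same extracts (r = 0.734 and 0.725), averaged first. Mouse numbers came from the array descriptions.

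PB and control mice (3 each) were compared with limma 3.58.1 in R 4.3.3, two-sided, with Benjamini-Hochberg adjustment at 0.05 over all genes tested in the set. The scripts were tested on simulated data. Mice are separate animals per the labels, and 3 in each group limit the precision. The reported fits used no replicate block and no term for PB and control mice that shared a two-colour array. How sharing an array affects the two-colour p-values of limma was not tested. Named genes are every histone gene past the threshold, the 5 largest fold changes of each class, a panel of H3f3a, H3f3b, H2az1, H2ax, H1f0, H1f2 and H2bc21, pathway genes past the threshold or else the 2 largest per list, and the 5 genes most like the members, and further members were named to account for all. The members, classes and gene lists were chosen with earlier results of these data known. Alternatives were other background corrections, scalings, filters, probe rules, dyes, mouse labels, a replicate block and leaving out each mouse. The lymphocyte marker list is not reported here.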

Additional observations from a re-analysis of the deposited data

How the results depend on the processing

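In the one-colour mean, where 7 histone genes passed, 17 passed after normexp and quantile normalization, 1 without the filter on dim probes, 0 without scaling between arrays (all-gene median then -0.23), 0 with the replicate number as a block, and 0 to 3 when 1 mouse was left out. At one-colour 1X, where 1 passed, 2 passed after normexp and quantile normalization, 0 with the 75th percentile over all probes, 0 without scaling, 0 with slide row as a block, 0 without the filter, 0 with the replicate block and 0 to 1 without 1 mouse. At one-colour 1.5X, where 0 passed, 17 passed after normexp and quantile normalization, 1 with the percentile over all probes and 1 with the mean of all probes of a gene. In the two-colour 1X set, where 21 passed, 12 passed with mice from the source names, 21 with the replicate block, and 16 to 20 without 1 mouse. In the two-colour 1.5X set, where 0 passed, 2 passed in the Cy3 channel alone.

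The replicate block pairs PB and control mice by number. In the one-colour mean, deviations of same-numbered mice from their group means correlated at r = 0.05, -0.12 and 0.28. Those of mice with different numbers ran from -0.27 to 0.25. With 3 mice in each group, these values cannot show whether same-numbered mice are paired. On the two-colour arrays used, PB mouse 3 and control mouse 3 were hybridised only with each other, per the array descriptions. The median of the replication-dependent genes stayed above 0 under every alternative run in each set. Signs turned only in genes that had not passed. Without scaling, H2bc21 and H3f3b had -0.018 and -0.046 in the one-colour mean, H2az2 and H2bc21 had -0.0016 and -0.14 at 1X, and H3f3b had -0.11 at 1.5X. Slide row as a block gave H2bc21 -0.20 at 1X, and the mean of all probes gave -0.11 for H3f3b at 1X and 0.25 for H3f3a at 1.5X. With 1 mouse left out, H2bc21 ran from -0.00096 to 0.39 in the mean and from -0.32 to 0.55 at 1X (-0.12 without control mouse 1), H3f3b from -0.082 to 0.14 at 1.5X and H3f3a from -0.35 to 0.051 at 1.5X. The cause of these changes was not tested, except that a left-out mouse leaves fewer samples. Cy5 detection limits the two-colour 1.5X set most, to 1659 genes tested.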

Other observations

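On the 2 two-colour 1X arrays whose labels give opposite exposures for each dye, the replication-dependent histone probes also stood apart from the other probes. On array 4 their median log2 ratio of Cy5 over Cy3 was 1.01 over 25 probes, against 0.05 for all 9691 probes, and on array 8 it was -0.69 over 26 probes, against 0.03 for all 9765 probes. Which dye carried the PB liver on these arrays is not settled by the labels, so no direction of exposure is drawn from either value.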
